A study of Mus musculus with 4 samples.

Results

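Scavenger receptors are the proteins with which macrophages take up modified lipoproteins, dying cells, haemoglobin complexes and microbes, and 10 of their genes were followed here: Msr1, Marco, Cd36, Scarb1, Scarb2, Cd68, Stab1, Cd163, Cd5l and Mertk. They were chosen by name, and all 10 were found by their Entrez numbers among the 15114 Entrez-numbered genes that at least 1 library listed. The cells were bone marrow-derived macrophages of C57BL/6 mice, grown with M-CSF at 20 ng/mL for 7 days and then given IL-4 at 20 ng/mL for 24 h. The 2 wild-type libraries carried Eif2ak3 fl/fl and no Cre, and the 2 knockout libraries were LysMcre x Eif2ak3 fl/fl, so both genotypes carried the floxed alleles of the gene for PERK, a stress kinase of the endoplasmic reticulum. LysMcre expresses Cre from the lysozyme locus of myeloid cells, the age of the mice is not given in the sources used here, and no label says whether the libraries of a genotype came from separate mice. The study asks how PERK serves immunosuppressive macrophages, and the comparison here is knockout against wild type, always under IL-4.

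As background, the family is grouped by structure rather than by descent. Class A receptors (MSR1, MARCO) are collagen-like trimers that bind modified low-density lipoprotein and bacteria, and class B receptors (CD36, SCARB1, SCARB2) are double-spanning membrane proteins that carry lipid or enzyme cargo. The other members are CD68, a mucin-like glycoprotein of endosomes and lysosomes, STAB1, a large clearance receptor of alternatively activated macrophages, CD163, the haptoglobin-haemoglobin receptor, CD5L, a secreted relative with the same cysteine-rich domains, and MERTK, a receptor kinase for dying cells. IL-4 is known to raise CD36 in macrophages together with the lipid-sensing nuclear receptor PPARγ.

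Across the 4 libraries the members covered a wide span of levels, given here as FPKM, fragments corrected for gene length and library size, so that genes can be set beside each other. Cd68 and Cd36 were the most abundant, with means over the 4 libraries of 663 and 643 FPKM. Together they made up 83.8% and 83.8% of the summed FPKM of the 10 genes in the wild-type libraries and 83.0% and 83.9% in the knockout libraries. Msr1 followed with a mean of 118 FPKM and Stab1 with 79.3 FPKM. A middle tier held Scarb2 at 20.4, Cd5l at 16.7, Scarb1 at 13.3 and Mertk at 8.18 FPKM. Marco and Cd163 were close to the floor of the tables, with means of 0.128 and 0.0475 FPKM. The ranges of Cd68 and Cd36 overlapped, as did those of Scarb2 with Cd5l, of Cd5l with Scarb1 and of Marco with Cd163, while every other pair of neighbours in this order was apart in all 4 libraries. The genes are also unlike in structure, with 6 exons in the longest GENCODE transcript of Cd68 and of Cd5l and 69 exons in that of Stab1.

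**Figure D1:**
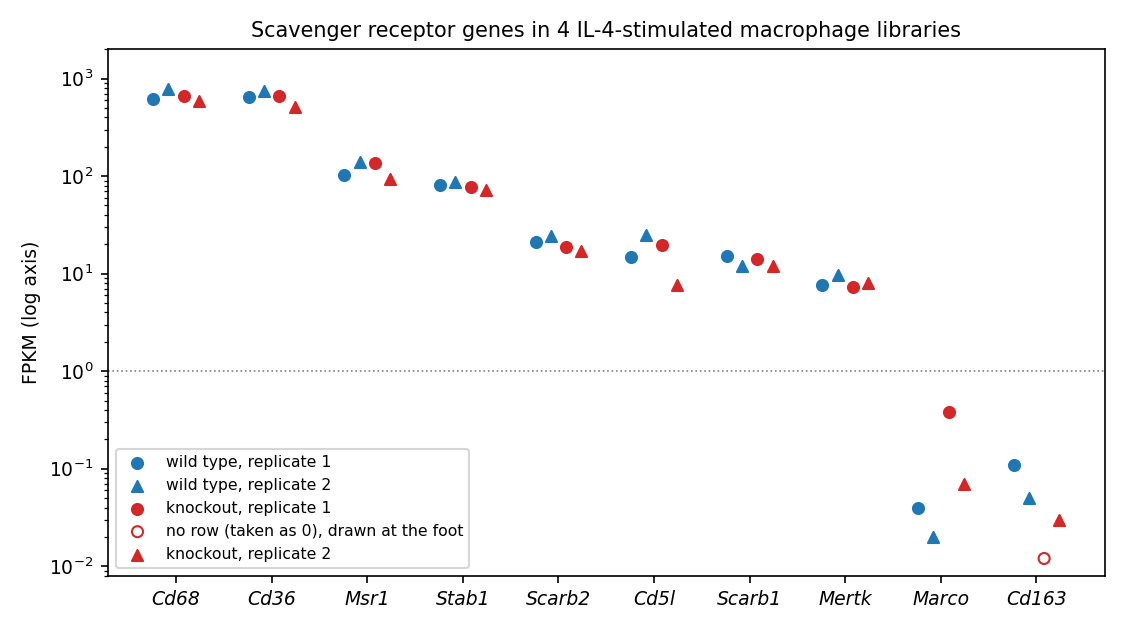
Level of each of the 10 genes in each library, in FPKM on a log axis, with wild type in blue, knockout in red, circles for replicate 1 and triangles for replicate 2. Cd68 and Cd36 lie between 517 and 786 FPKM in all 4 libraries, 8 genes lie above the dotted line at 1 FPKM, and Marco and Cd163 stay at or under 0.38 FPKM.

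The promoters of Cd68, the most abundant member, and Marco, a member close to the floor, are shown because the same short letters stand in both. The window of Cd163, the lowest member, did not hold those letters. The 250 bases before each start come from RefSeq on GRCm38.p6, for Cd68 chr11:69666171-69666420 and for Marco chr1:120505025-120505274, both on the minus strand and printed 5′ to 3′.
Cd68: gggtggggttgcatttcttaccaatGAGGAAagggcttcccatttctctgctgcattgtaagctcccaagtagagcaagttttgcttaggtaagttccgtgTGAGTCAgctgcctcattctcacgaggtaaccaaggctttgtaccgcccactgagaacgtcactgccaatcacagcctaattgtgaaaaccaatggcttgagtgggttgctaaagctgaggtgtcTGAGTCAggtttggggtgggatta
Marco: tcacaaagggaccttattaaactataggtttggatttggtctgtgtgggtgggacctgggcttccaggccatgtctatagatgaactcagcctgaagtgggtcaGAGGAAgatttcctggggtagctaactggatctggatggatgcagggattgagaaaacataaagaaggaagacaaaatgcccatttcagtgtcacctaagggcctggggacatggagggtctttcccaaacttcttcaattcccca
The motifs and this pair were chosen after expression values and matches had been seen. Capitals mark GAGGAA, the core of the sites of the myeloid factor PU.1, and TGAGTCA, the site of AP-1 factors. GAGGAA begins 225 bases before the start of Cd68 and 146 bases before that of Marco, and TGAGTCA begins 149 and 24 bases before the start of Cd68. RefSeq windows were matched for 8 members, while Msr1 and Scarb1 had no matched window and were not examined. GAGGAA on either strand was in 4 of the 8, those of Cd68, Marco, Stab1 and Cd5l, against 23.3% of 32851 windows of the same length. TGAGTCA was in 1 of the 8 and in 4.46% of all windows. AGGTCA, a core site of nuclear receptors, was in 1 (Cd36, in a window that lies inside the gene's RefSeq span) and in 14.02% of all, TTCNNNNGAA, the STAT6 pattern, was in 1 (Cd5l) and in 5.85% of all, and CACGTG, bound by lysosomal regulators of the TFEB family, was in 0 and in 6.02% of all. No 2 different motifs overlapped in these windows, and a match of letters is a description and not a binding site.

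Before the genotypes were compared, the libraries were checked. Eif2ak3 had wild-type values of 10.9 and 8.88 FPKM and knockout values of 6.55 and 4.88 FPKM, and such gene-level values cannot show which exons were lost. Lyz2, the lysozyme gene at the LysMcre insertion, had 627 and 699 against 253 and 201 FPKM. Neither passed the threshold used for the members below, with a log2 change relative to the median gene of -0.56 (limma adjusted p = 0.776) for Eif2ak3 and -1.41 (limma adjusted p = 0.413) for Lyz2. All 9 macrophage markers stood at 1 FPKM or more in every library. Their summed level, which includes Lyz2, was 1627 to 2038 FPKM in wild type and 1208 to 1564 FPKM in knockout. Because Lyz2 lies at the LysMcre insertion, the lower sums in knockout are not a measure of the other markers. Lyz2 was the most abundant of the 9 in both wild-type libraries, while Lgmn and Adgre1 stood above it in both knockout libraries. Besides Lyz2, Ptprc was lower in both knockout libraries, at 98.32 and 94.75 FPKM in wild type against 85.49 and 74.62 FPKM. In every other macrophage marker the groups overlapped. Summed markers of neutrophils, dendritic, T, B, stromal, endothelial, erythroid and megakaryocytic cells stayed at or under 3.78 FPKM in each library, while osteoclast markers summed to 24.7 to 32.03 FPKM in wild type and 26.5 to 26.8 FPKM in knockout. Entrez-numbered genes held 54.8% to 58.9% of all FPKM in 3 libraries and 41.1% in knockout replicate 2. The median tested gene had a log2 change of -0.14 as deposited, so log2 changes below, on the scale of log2(FPKM + 1), are given relative to that gene, while p-values are those of the deposited values. In such bulk samples, fewer cells of a type and less RNA per cell cannot be told apart.

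None of the scavenger receptors passed the test for a difference between genotypes. Of the 8 with a mean of at least 1 FPKM, limma called 0 higher and 0 lower at an adjusted p of 0.05 (lowest adjusted p = 0.776) over 9501 genes, of which 0.0211% were called lower and 0% higher. At an unadjusted p under 0.05 there were also 0 members, against 3.52% of all tested genes lower and 0.705% higher, and again 0 after median-ratio scaling, which divides each library by the median ratio of its genes to their geometric means, against 1.27% and 1.87%. Both knockout libraries were below both wild-type libraries in 2 members as deposited and in 1 after that scaling, against 35.6% and 14.1% of all tested genes, and above them in 0 of the 8 on either scaling, against 4.14% and 15%. The count of called members was 0 under each of the 15 alternatives tried. Relative to the median gene, 6 of the 8 had lower and 2 higher values in knockout, and their median log2 change was -0.03, inside the middle 50% of all tested genes, which ran from -0.09 to 0.11. Marco and Cd163 were under the filter and were not tested. These p-values rest on the spread between libraries, 2 per genotype, with each gene's variance drawn towards a trend over all tested genes. For a single gene an exact two-sided permutation of 2 against 2 libraries could not go below p = 0.333.

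**Figure D2:**
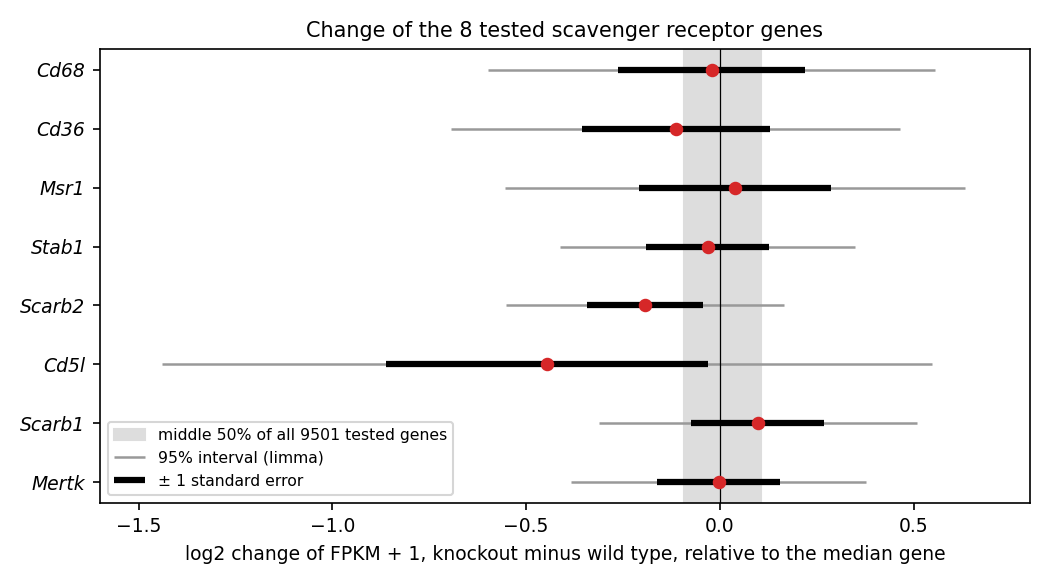
Log2 change of FPKM + 1, knockout minus wild type and relative to the median gene, for the 8 tested genes in order of their level, with 1 standard error (thick) and the 95% interval (thin) from 2 libraries per genotype. Every interval crosses 0, and that of Cd5l, from -1.44 to 0.55, is the widest.

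In class A, Msr1, the receptor for modified low-density lipoprotein (Entrez 20288, chromosome 8, 39543232 to 39642750, GRCm38), had wild-type values of 104 and 139.6 FPKM and knockout values of 135 and 93.1 FPKM. Replicate 2 was the higher library in wild type and the lower one in knockout, so the groups overlapped. Its log2 change was +0.04 (SE 0.25, 95% interval -0.55 to 0.63, limma adjusted p = 0.893). The sign turned negative without wild-type replicate 1 (-0.17) or knockout replicate 1 (-0.15), and the change was +0.24 and +0.22 without the other library of each genotype. Marco, a receptor for unopsonised particles and bacteria (Entrez 17167, chromosome 1, 120474538 to 120505024), had wild-type values of 0.04 and 0.02 FPKM and knockout values of 0.38 and 0.07 FPKM. Both knockout values were above both wild-type values, all of them so low that no change is given.

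Among class B receptors, Cd36, which imports long-chain fatty acids and oxidised lipoprotein (Entrez 12491, chromosome 5, 17781690 to 17888959), had wild-type values of 643 and 754 FPKM and knockout values of 658 and 517 FPKM. Knockout replicate 1 lay between the wild-type libraries and knockout replicate 2 below them, so the groups overlapped. The log2 change was -0.11 (SE 0.24, 95% interval -0.69 to 0.47, limma adjusted p = 0.776). It was -0.01 without wild-type replicate 2 and -0.02 without knockout replicate 2, and -0.23 and -0.21 without replicate 1 of wild type and of knockout. The ratio of Cd36 to Cd68 within a library, which no scaling between libraries can alter, was 1.04 and 0.959 in wild type and 0.988 and 0.888 in knockout. Both genes were highest in wild-type replicate 2 and lowest in knockout replicate 2 as deposited.

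Scarb2 encodes LIMP-2, the lysosomal membrane protein that carries enzyme cargo to lysosomes (Entrez 12492, chromosome 5, 92441311 to 92505657). It had wild-type values of 21.3 and 24.4 FPKM and knockout values of 18.8 and 17.1 FPKM. Both knockout libraries were below both wild-type libraries, as deposited and after median-ratio scaling of the libraries. So were 35.6% of all tested genes as deposited and 14.1% after that scaling. The log2 change was -0.19 (SE 0.15, 95% interval -0.55 to 0.17), with an unadjusted limma p of 0.064 and an adjusted p of 0.776. It was negative under all 15 alternatives, between -0.32 and -0.11, the latter without wild-type replicate 2. Its ratio to Lamp1, a general marker of lysosomal membranes, was 0.0572 and 0.0755 in wild type and 0.0641 and 0.0682 in knockout. The knockout libraries were thus between the wild-type ones, but Lamp1 itself was lower in both knockout libraries on either scaling. The ratio of Scarb2 to Cd68 was 0.0345 and 0.0311 in wild type and 0.0282 and 0.0293 in knockout, lower in both knockout libraries. That of Scarb2 to Scarb1 was 1.40 and 2.06 in wild type and 1.34 and 1.42 in knockout, where the groups overlapped. That of Cd36 to Scarb2 overlapped too, at 30.2 and 30.9 in wild type and 35.0 and 30.3 in knockout. The pairs were chosen after values were seen, and no share of all genes is given for such ratios.

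Scarb1, the receptor for high-density lipoprotein (Entrez 20778, chromosome 5, 125277087 to 125341094), had wild-type values of 15.2 and 11.8 FPKM and knockout values of 14.1 and 12.01 FPKM. Both knockout libraries lay between the wild-type ones. Its log2 change was +0.10 (SE 0.17, 95% interval -0.31 to 0.51, limma adjusted p = 0.936), +0.26 without wild-type replicate 1 and -0.08 without wild-type replicate 2. Scarb1 was the tested member with its highest value in wild-type replicate 1 and its lowest in wild-type replicate 2. The 3 class B genes thus differed among themselves in level, Cd36 standing 30.2-fold and 30.9-fold above Scarb2 in the wild-type libraries and 35.0-fold and 30.3-fold above it in the knockout libraries.

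Cd68, the endosomal and lysosomal glycoprotein used as a general macrophage marker (Entrez 12514, chromosome 11, 69664213 to 69666170), had wild-type values of 617 and 786 FPKM and knockout values of 666 and 583 FPKM. Knockout replicate 1 lay between the wild-type libraries. The log2 change was -0.02 (SE 0.24, 95% interval -0.60 to 0.56, limma adjusted p = 0.824), -0.20 without wild-type replicate 1 and +0.14 without wild-type replicate 2. Stab1, stabilin-1, which clears extracellular matrix proteins and acetylated lipoprotein (Entrez 192187, chromosome 14, 31139017 to 31168651), had wild-type values of 80.7 and 87.5 FPKM and knockout values of 76.7 and 72.4 FPKM. Its knockout libraries were below both wild-type libraries as deposited but not after median-ratio scaling, where the values were 76.8 and 82.5 against 75.9 and 81.1. As deposited, the replicates agreed within 1.08-fold in wild type and 1.06-fold in knockout, the closest agreement of the 8 tested members. After median-ratio scaling the knockout replicates of Cd68, at 659 and 653, were closer to each other than those of Stab1. The log2 change of Stab1 was -0.03 (SE 0.16, 95% interval -0.41 to 0.35, limma adjusted p = 0.776), +0.02 without wild-type replicate 2 and +0.0025 without knockout replicate 1. The protein-coding gene Nt5dc2, which overlaps Stab1 by 108 bases in RefSeq, was listed in 1 library, at 1.3 FPKM.

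Among the members with scavenger receptor cysteine-rich domains outside class A, Cd5l, which encodes a secreted protein of macrophages that supports their survival and binds lipids (Entrez 11801, chromosome 3, 87357881 to 87371074), had the largest spread between libraries of the 8 tested members. It had wild-type values of 14.7 and 24.8 FPKM and knockout values of 19.5 and 7.71 FPKM. Knockout replicate 1 lay between the wild-type libraries and knockout replicate 2 was below all others, 2.53-fold under its own replicate. In that library Entrez-numbered genes held 41.1% of FPKM, and a link to the Cd5l value was not tested. The log2 change was -0.45 (SE 0.42, 95% interval -1.44 to 0.55, limma adjusted p = 0.776), and it depended on single libraries. Without knockout replicate 2 the change was +0.09, and without knockout replicate 1 it was -0.99. Without wild-type replicate 1 it was -0.81, and without wild-type replicate 2 it was -0.10. Within the libraries, the ratio of Cd5l to Cd68 was 0.0237 and 0.0315 in wild type and 0.0293 and 0.0132 in knockout, so the low value in knockout replicate 2 stood also beside another macrophage gene. Cd163 (Entrez 93671, chromosome 6, 124304636 to 124330529), the haemoglobin scavenger, was at 0.11 and 0.05 FPKM in the wild-type libraries, had no row in knockout replicate 1 and measured 0.03 FPKM in knockout replicate 2. With the missing row taken as 0, both knockout values were below both wild-type values, again too low for a change to be given. For Marco and Cd163 no share of all genes at such levels is given.

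Mertk, the receptor kinase that binds dying cells through the bridging proteins GAS6 and protein S (Entrez 17289, chromosome 2, 128698915 to 128803162), had wild-type values of 7.66 and 9.65 FPKM and knockout values of 7.34 and 8.07 FPKM. Knockout replicate 2 lay between the wild-type libraries. The log2 change was -0.0030 (SE 0.16, 95% interval -0.38 to 0.38, limma adjusted p = 0.791), and it ran from -0.15 without wild-type replicate 1 to +0.14 without wild-type replicate 2. Of its sister kinases, Axl had wild-type values of 2.97 and 3.65 FPKM and knockout values of 6.32 and 3.89 FPKM, and Tyro3 stayed at or under 0.21 FPKM. Axl was named because it belongs to the same receptor trio, after its values were seen, and its log2 change was +0.62 (SE 0.22, limma adjusted p = 0.776), or +0.40 without knockout replicate 1.

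**Figure D3:**
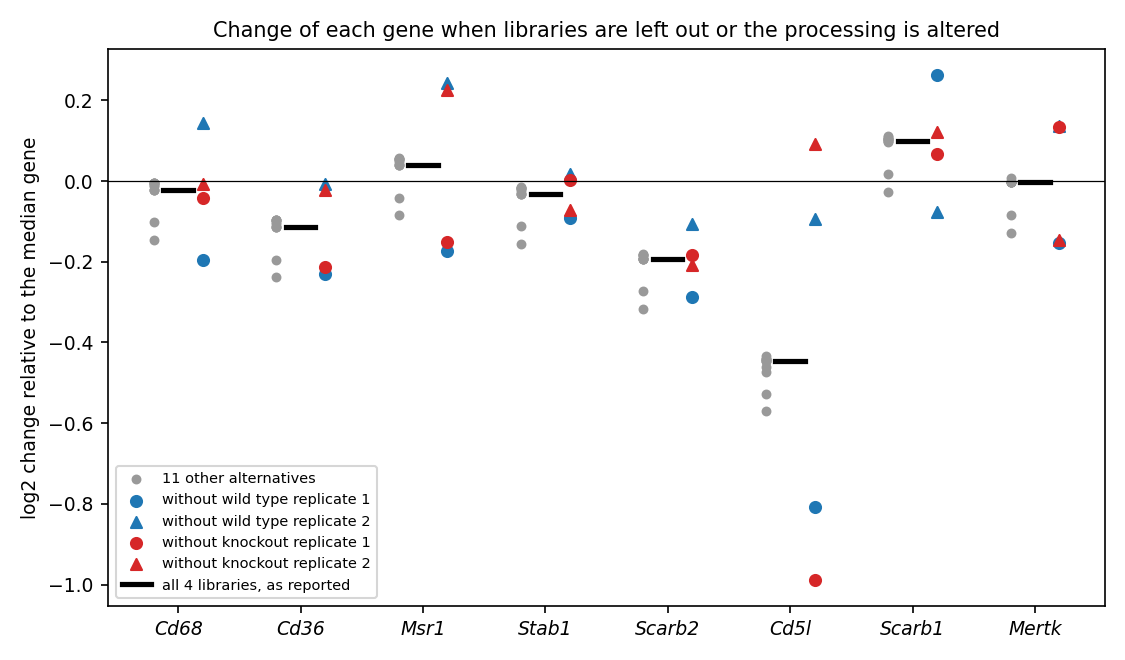
Log2 change relative to the median gene for the 8 tested genes with all 4 libraries (black bars), with 1 library left out (coloured points) and under 11 other alternatives (grey points). Cd36 and Scarb2 stay below 0 throughout, while the other 6 cross 0 when a library is left out or a setting is changed, and Cd5l ranges from -0.99 to +0.09.

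Other genes of the same uptake routes were taken from 5 lists, described here by counts. Of 20 further scavenger receptors, 7 were tested and limma called 0 higher and 0 lower. By unadjusted p under 0.05, 1 was lower as deposited and 0 after median-ratio scaling, against 3.52% and 1.27% of all tested genes. Their median log2 change was 0.00071 relative to the median gene. Both knockout libraries were below both wild-type libraries in 3 of the 7 as deposited and in 2 after scaling, against 35.6% and 14.1% of all tested genes. Both were above in 2 on either scaling, against 4.14% and 15%. Lrp1, an endocytic receptor for many ligands, had wild-type values of 131 and 109 FPKM and knockout values of 94.5 and 81.0 FPKM, with log2 change -0.31 (SE 0.19, limma adjusted p = 0.776), which was -0.17 without wild-type replicate 1. Clec7a, the β-glucan receptor dectin-1, had 205 and 240.0 against 192 and 157 FPKM, and the groups did not overlap. Scarf1, a receptor for acetylated lipoprotein, had 4.21 and 5.83 against 6.44 and 5.96 FPKM, higher in both knockout libraries. Cxcl16, a chemokine that is also a receptor for oxidised lipoprotein, had 7.74 and 21.4 against 24.5 and 14.3 FPKM, with wild-type replicate 1 apart from the other 3 libraries. Its log2 change of +0.64 was -0.04 without that library.

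Of 25 genes of apoptotic cell engulfment, 19 were tested and 0 were called by limma. At an unadjusted p under 0.05, 4 were lower and 0 higher as deposited, against 3.52% and 0.705% of all tested genes. After median-ratio scaling 0 were lower and 1, Axl, was higher, against 1.27% and 1.87%. The ligands that bridge Mertk to dying cells were among the 4. Gas6 had wild-type values of 70.9 and 89.0 FPKM and knockout values of 55.3 and 59.6 FPKM, with log2 change -0.32 (SE 0.18, limma adjusted p = 0.776), which ran from -0.49 without wild-type replicate 1 to -0.17 without wild-type replicate 2. Pros1, protein S, had 13.9 and 15.3 against 11.7 and 10.2 FPKM, with log2 change -0.24 (SE 0.15, limma adjusted p = 0.776). Dock1, an activator of Rac1 in engulfment, had 9.28 and 11.9 against 8.26 and 6.14 FPKM, and Cd300a, an inhibitory receptor for phosphatidylserine, 13.1 and 11.1 against 7.31 and 9.01 FPKM. In all 4 of these genes both knockout libraries were below both wild-type libraries, as deposited and after median-ratio scaling. They were named for the smallest p of their list in these same libraries, so their separation adds no further support. Of the 19, 8 were below in this way as deposited and 5 after scaling, against 35.6% and 14.1% of all tested genes. Both knockout libraries were above both wild-type libraries in 2 on either scaling, against 4.14% and 15%.

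Of 21 genes of lipoprotein and fatty acid handling, 19 were tested and 0 were called. By unadjusted p, 1 was higher and 0 lower as deposited (Rxra), and 2 were higher (Rxra and Nr1h3) and 0 lower after median-ratio scaling, against all-gene shares of 0.705% higher and 3.52% lower, and of 1.87% and 1.27% once scaled. The partner receptor gene Rxra had wild-type values of 4.25 and 2.79 FPKM and knockout values of 5.80 and 5.17 FPKM, with log2 change +0.68 (SE 0.20, limma adjusted p = 0.776), which was +0.43 without wild-type replicate 2. Nr1h3, which encodes the oxysterol sensor LXRα, had 1.64 and 1.78 against 2.38 and 2.41 FPKM (+0.47, SE 0.17, limma adjusted p = 0.776). Nr1h2, which encodes LXRβ, had 19.6 and 25.3 against 14.8 and 18.1 FPKM, and Lipa, lysosomal acid lipase, 383 and 468 against 328 and 323 FPKM. Both knockout libraries were lower for Nr1h2 and Lipa, though Nr1h2 overlapped after median-ratio scaling. Of the 19, 5 were lower in this way as deposited and 2 after scaling, against 35.6% and 14.1% of all tested genes. Both knockout libraries were above both wild-type libraries in 2 and in 3, against 4.14% and 15%. Pparg, the nuclear receptor that controls Cd36, had wild-type values of 43.4 and 42.2 FPKM and knockout values of 41.2 and 39.3 FPKM, with log2 change +0.05 (SE 0.15, limma adjusted p = 0.841), and was added after its values were seen.

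Among 18 co-receptors, adaptors, cargo genes and shedding enzymes, 15 were tested and 0 were called. Both knockout libraries were below both wild-type libraries in 11 of the 15 as deposited and in 4 after median-ratio scaling. The shares of all tested genes were 35.6% and 14.1%. Both were above in 0 and in 1, against 4.14% and 15%. At an unadjusted p under 0.05, 1 was lower as deposited and again after median-ratio scaling, against 3.52% and 1.27% of all tested genes. In both cases that gene was Hmox1, haem oxygenase, which breaks down the haem that CD163 brings in, with wild-type values of 241 and 249 FPKM and knockout values of 185 and 164 FPKM (log2 change -0.35, SE 0.18, limma adjusted p = 0.776). Itgb1, a partner of CD36, had 143 and 166 against 134 and 109 FPKM. Adam10, a protease that sheds surface receptors, had 44.9 and 42.9 against 41.5 and 27.0 FPKM, and Lamp1 372 and 323 against 293 and 249.8 FPKM. Of 17 transcription factors of macrophage receptor genes, 14 were tested and 0 were called, with 0 at an unadjusted p under 0.05 as deposited and 2 higher after median-ratio scaling (Nr1h3 and Maf, the latter named after its values were seen), against 1.87% of all tested genes. Of these 14, both knockout libraries were below both wild-type libraries in 10 as deposited and in 2 after scaling, against 35.6% and 14.1% of all tested genes. Both were above in 1 and in 2, against 4.14% and 15%. Klf4, a factor of alternative activation, had a log2 change of -0.26, Nfe2l2, the antioxidant factor NRF2, -0.20, and Cebpb -0.13. Klf4 stood at -0.10 without wild-type replicate 1 and at -0.43 without wild-type replicate 2, and Cebpb at +0.08 without knockout replicate 1. The medians of the 4 latter lists were -0.01, 0.08, -0.03 and -0.05 in the order described.

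**Figure D4:**
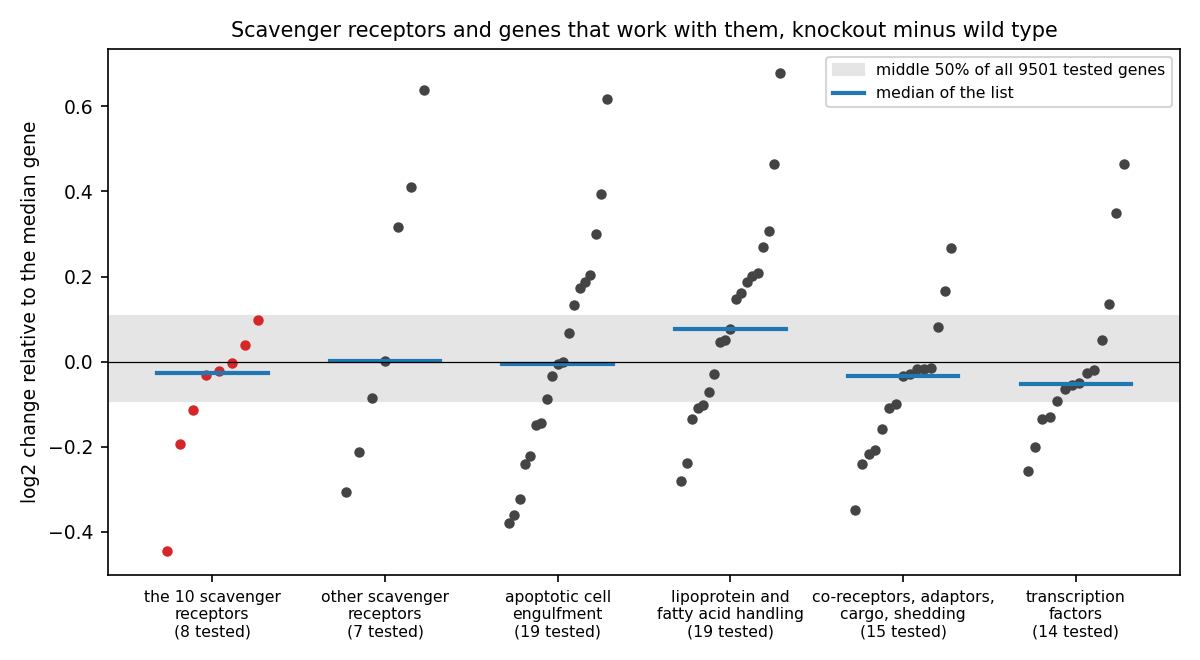
Log2 change relative to the median gene for each tested member of the 10 scavenger receptors (red) and of 5 lists of related genes (grey), with list medians as blue bars and the middle 50% of all 9501 tested genes as a grey band. All 6 medians lie within the band, from -0.05 to 0.08.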

How the data were processed

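The values are FPKM per gene, computed by the authors and deposited to 2 decimals, with 1 table per library. Per the submitters' processing notes the genome was mm10 and the tools included RSEM, Bowtie2, StringTie and HISAT, with neither versions nor roles. Per the labels' protocols the libraries were rRNA-depleted, stranded and randomly primed. The annotation and the strand setting of the counting are not given in the sources used here. The tables hold no counts, so depth is unknown and no counting interval is given. A gene without a row in a library was taken as 0. Entrez numbers were paired with symbols through RefSeq for GRCm38.p6 (15094 of 15114 matched).

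Genes averaging 1 FPKM or more (9501) were compared as log2(FPKM + 1) with limma 3.58.1 in R 4.3.3, with a mean-variance trend, two-sided, without a block, and with Benjamini-Hochberg adjustment over all tested genes. The 95% intervals come from the same model. The 10 members, the 5 lists and the markers were chosen with earlier results of these data known. The text names all 10 members, the 4 genes with the smallest p of each list, and others where stated. The promoter motifs, the printed promoter pair and the pairs of genes set as ratios were chosen after values were seen. A gene of the list of co-receptors and cargo is not reported here and was left out of that list. Promoter windows were checked against GENCODE transcripts by bases after the start, a stretch that was moved after a first one did not match for several members, and the windows of Cd36 and Mertk still had no match. The alternatives altered scaling, filter, pseudocount, variance prior, features, block and libraries. With 2 libraries per genotype and no label that ties equal numbers to a shared mouse or day, the numbers were not taken to pair libraries.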

Additional observations from a re-analysis of the deposited data

How the results depend on the processing

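The number of scavenger receptors past the threshold was 0 under all 15 alternatives, as it was in each of the 5 related lists. Their median log2 change relative to all tested genes, -0.03, ran from -0.19 to 0.01 with 1 library left out, and was -0.15 when all listed features entered the fit. The number of all genes past the threshold, 2, was 0 among genes listed in all 4 libraries and ran from 2 to 43 with 1 library left out, 43 being the count without wild-type replicate 2. The sign of a change turned for Msr1 with no filter on low values (-0.041) and with all listed features in the fit (-0.085), for Pparg under the same alternatives (-0.029 and -0.073), for Scarb1 with all listed features (-0.027), and for Mertk with a minimum mean of 5 FPKM (+0.0085). Median-ratio size factors from all genes listed in every library, instead of the tested ones among them, were tried first and replaced after those results had been seen. They are counted among the alternatives and gave 0 members and 2 of all genes past the threshold. Values relative to the median depend on the genes included in each fit. With 1 library left out, Msr1 ran from -0.17 to 0.24, Scarb1 from -0.078 to 0.26, Cd68 from -0.20 to 0.14, Stab1 from -0.090 to 0.018, Cd5l from -0.99 to 0.091, Mertk from -0.15 to 0.14, Cxcl16 from -0.041 to 1.31 and Cebpb from -0.35 to 0.083, and the cause was not tested. With the replicate number as a block, 0 members and 14 of all genes passed the threshold, and the replicate differences of the genotypes correlated at 0.07 across 9501 genes, which are not independent. With 2 libraries per genotype, the 95% intervals of the 8 tested members relative to the median gene lay between -1.44 and 0.63.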

Other observations

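Several genes of macrophage clearance in which 1 or more libraries stood apart are given here after their values were seen. C1qa, C1qb and C1qc, the chains of the complement protein that coats dying cells, were lowest in wild-type replicate 1 and highest in wild-type replicate 2. C1qa had wild-type values of 241 and 618 FPKM and knockout values of 424 and 384 FPKM. Tgm2, transglutaminase 2, a marker of alternative activation that aids engulfment, measured 24.8 and 64.0 FPKM against 34.5 and 37.5 FPKM. Fcgr1, the high-affinity Fc receptor, had 7.27 FPKM in wild-type replicate 1, while the other 3 libraries had 33.6 (wild type), 34.04 and 25.5 FPKM (knockout). Apoe, the lipid carrier that macrophages secrete, followed the replicate number, with wild-type values of 151 and 384 FPKM and knockout values of 177 and 357 FPKM. Abca7, a lipid transporter linked to engulfment, had no row in wild-type replicate 1 and 0.01 FPKM in the other wild-type library, and its knockout values were 0.74 and 2.76 FPKM, the higher of them in knockout replicate 2. Both lay above both wild-type values, and the gene averaged under the filter, so it was not tested. The part of a single library in these values was not tested.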
